A study of Mus musculus with 6 samples.

Results

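Endothelial cells line blood vessels, and 10 genes by which they are commonly recognised were followed through RNA from cultured mouse fetal thymus. The genes were *Pecam1*, *Cdh5*, *Kdr*, *Flt1*, *Tek*, *Tie1*, *Egfl7*, *Emcn*, *Esam* and *Sox17*. They were chosen by name with earlier results of these data known, so shares over all genes set beside them are a description. Each matched 1 entry, and they made up 10 of 22513 gene entries. The question put to these libraries was how transcription in the thymic stroma differs between wild-type (WT) mice and mice lacking the oxygenase Jmjd6, before and after stimulation with RANKL, the cytokine that induces *Aire* in medullary epithelium. Lobes of fetal thymus on the C57BL/6 background were kept for 4 days in 2-deoxyguanosine (2-DG), which kills developing blood cells and spares the stroma, and every library carries that treatment. There were 6 libraries, 1 of unstimulated WT lobes, 1 of unstimulated Jmjd6-/- lobes, 2 of RANKL-stimulated WT lobes and 2 of RANKL-stimulated Jmjd6-/- lobes. The labels call repeated libraries technical duplicates, so p-values measure only the spread between these libraries, which may be technical. The deletion is present in every cell of the lobe, and cultured lobes have no blood flow.

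Expression is given as FPKM, fragments scaled by transcript length and by the size of the library, so levels can be compared between genes per length. The estimated depth was 15500000 to 30900000 fragments a library. *Jmjd6* itself was at 26.3 FPKM in unstimulated WT lobes, 25.9 and 32.5 in WT lobes with RANKL, and 1.32, 1.96 and 1.78 in the Jmjd6-/- lobes, and *Aire* was at 0.142 and 0.473 FPKM without RANKL against 67.1 to 79.7 with it. Both genes follow the titles, genotypes and stimulation field of the labels by which the libraries were grouped, while the treatment field gives RANKL for every sample. The WT RANKL libraries differed from each other by a median of 0.276 on the log2 scale over 12587 genes, and the Jmjd6-/- RANKL libraries by 0.077. All 10 endothelial genes were above 0 in every library, but their summed level was small, 8.16 to 39.8 FPKM against 5736 to 8549 FPKM for 9 thymic epithelial genes. Of 42 other surface and junction genes of endothelium, 39 were above 0 in every library and 27 averaged 1 FPKM or more, among them *Cldn5*, a tight junction gene, at 0.931 to 6.68 FPKM and *Eng*, a coreceptor for TGF-β family ligands, at 2.94 to 5.76. *Vwf*, the von Willebrand factor gene, was low at 0.0519 to 0.271 FPKM, as was the lymphatic receptor gene *Lyve1* at 0.0257 to 0.0887.

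VEGF acts on endothelial cells through the receptor kinase encoded by *Kdr*, while the product of *Flt1* binds the same ligand tightly and, as a secreted splice form, holds it away. Angiopoietins act through the receptor encoded by *Tek*, with the related *Tie1* product as partner, and steady the contacts between cells that VE-cadherin (*Cdh5*), PECAM1 and ESAM build. In the thymus, vessels are the route by which progenitors enter and finished T cells leave. Jmjd6 has been described in endothelial cells as a factor in the splicing of *Flt1*, which gene-level values cannot show.

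All 10 endothelial genes were lower in Jmjd6-/- than in WT lobes, both without and with RANKL. Without RANKL this sets 1 library against 1, and the share of all genes in that order was not counted. Under RANKL the WT level was 1.42 times (*Flt1*) to 5.76 times (*Tie1*) the Jmjd6-/- level, and both Jmjd6-/- libraries were below both WT libraries for 10 of 10 genes, an order that 26.2% of the 15894 genes tested showed. For 8 of 10 genes all 3 Jmjd6-/- libraries were below all 3 WT libraries, which held for 9.14% of all genes. Among these 8, *Emcn* was near a tie, at 1.607 FPKM in unstimulated Jmjd6-/- against 1.615 in WT RANKL replicate 2. In limma on log2(FPKM + 0.1), adjusted over all genes, 5 of 10 fell in Jmjd6-/- lobes with RANKL as a term in the fit. Over all genes 3.38% fell in that comparison. When the RANKL libraries alone were compared 3 of 10 fell, beside 1.82% of all genes. Both member counts were 0 without the filter at a mean of 0.1 FPKM. No member rose. In bulk RNA, fewer endothelial cells and less RNA per cell cannot be told apart.

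**Figure D1:**
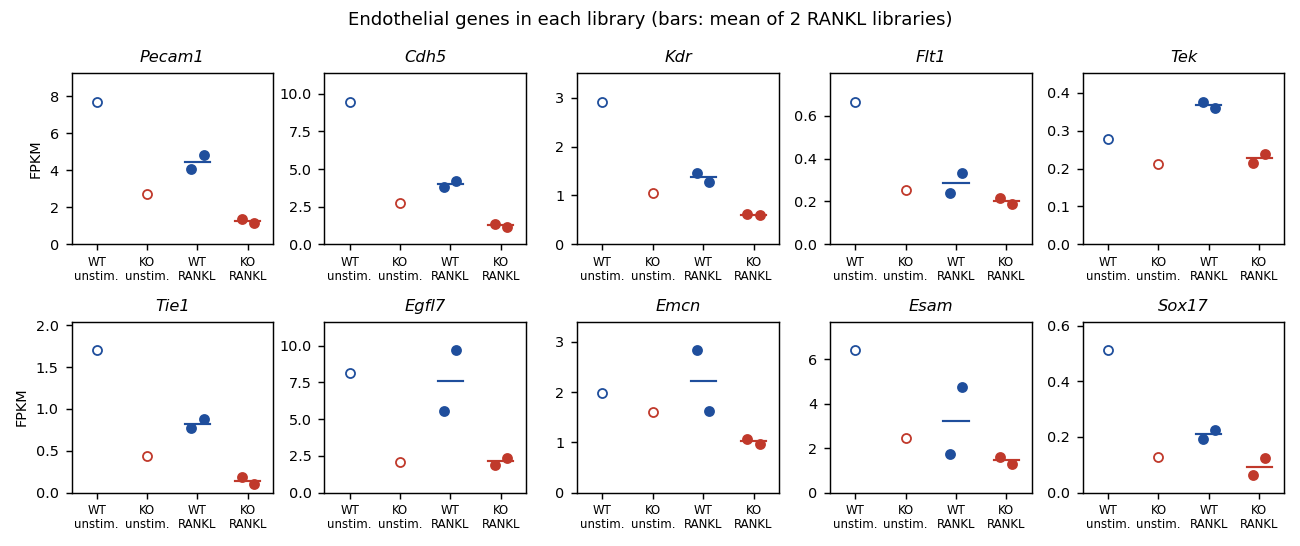
Levels of the 10 endothelial genes in the 6 libraries, on linear axes in FPKM that start at 0 and differ between genes, with 1 point a library and a bar at the mean of the RANKL pair (blue WT, red KO for Jmjd6-/-, open points without RANKL). Within RANKL stimulation the Jmjd6-/- points lie below the WT points for every gene, and the WT RANKL libraries lie apart for *Egfl7*, at 5.54 and 9.70 FPKM, and for *Esam*, at 1.75 and 4.73 FPKM.

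Among the genes of cell contacts, *Pecam1* (XLOC_003831, chr11:106654218-106715281, minus strand), an adhesion receptor at endothelial junctions, was at 7.71 FPKM in WT lobes without RANKL and 2.72 in Jmjd6-/- lobes. With RANKL it was at 4.05 and 4.83 FPKM in WT and 1.39 and 1.13 in Jmjd6-/-. The 3 Jmjd6-/- libraries were thus all below the 3 WT libraries. The RANKL means were 4.44 ± 0.552 FPKM (SD, n = 2) in WT and 1.26 ± 0.180 (SD, n = 2) in Jmjd6-/-. On the log2(FPKM + 0.1) scale the genotype difference under RANKL was -1.74 (SE 0.21, limma adjusted p = 0.0282), and with RANKL as a term, over 3 libraries against 3, it was -1.65 (SE 0.16, limma adjusted p = 0.00624).

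*Cdh5* (XLOC_019527, chr8:104101625-104144502, plus strand) encodes VE-cadherin, the endothelial cadherin of adherens junctions. It was at 9.48 FPKM in unstimulated WT, 2.72 in unstimulated Jmjd6-/-, 3.78 and 4.20 in WT with RANKL, and 1.34 and 1.16 in Jmjd6-/- with RANKL. Unstimulated WT stood far above the rest, and again no Jmjd6-/- library reached a WT library. The difference under RANKL was -1.60 (SE 0.19, limma adjusted p = 0.0282) and with RANKL as a term -1.65 (SE 0.14, limma adjusted p = 0.00427). *Esam* (XLOC_020323, chr9:37528089-37538319, plus strand), an adhesion molecule of endothelial tight junctions, was at 6.41, 2.47, 1.75, 4.73, 1.62 and 1.27 FPKM in the same order. WT RANKL replicate 1 was below unstimulated Jmjd6-/-, so the groups overlapped, and the difference with RANKL as a term, -1.09 (SE 0.35, limma adjusted p = 0.135), did not pass the threshold.

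Of the VEGF receptors, *Kdr* (XLOC_015453, chr5:75933270-75978428, minus strand), the main signalling receptor, was at 2.92 FPKM in WT lobes without RANKL and 1.05 in Jmjd6-/- lobes. With RANKL it was at 1.47 and 1.28 FPKM in WT against 0.615 and 0.599 in Jmjd6-/-. All Jmjd6-/- values were below all WT values. The difference with RANKL as a term was -1.17 (SE 0.19, limma adjusted p = 0.0201), while under RANKL alone it was -1.06 (SE 0.23, limma adjusted p = 0.0802). *Flt1* (XLOC_015857, chr5:147562196-147725988, minus strand), the VEGF-binding receptor, was at 0.665 FPKM in unstimulated WT, 0.252 in unstimulated Jmjd6-/-, 0.238 and 0.334 in WT with RANKL, and 0.217 and 0.186 in Jmjd6-/- with RANKL. WT RANKL replicate 1 was just under the unstimulated Jmjd6-/- library, and the difference of -0.60 with RANKL as a term (SE 0.29, limma adjusted p = 0.286) had a 95% interval from -1.30 to 0.09. These values rest on an estimated 23 to 139 fragments of *Flt1* a library.

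Of the angiopoietin receptor pair, *Tie1* (XLOC_014252, chr4:118471191-118489849, minus strand), the partner receptor, showed the widest ratio among the 10 genes under RANKL, though not without it. It was at 1.71 FPKM in unstimulated WT, 0.442 in unstimulated Jmjd6-/-, 0.774 and 0.876 in WT with RANKL, and 0.185 and 0.101 in Jmjd6-/- with RANKL. The groups did not overlap. The difference was -1.95 under RANKL (SE 0.30, limma adjusted p = 0.0466) and -1.88 with RANKL as a term (SE 0.25, limma adjusted p = 0.0125), and the lowest value stands for about 8 fragments. *Tek* (XLOC_013458, chr4:94739300-94874939, plus strand), the receptor that binds angiopoietin itself, was at 0.277, 0.212, 0.377, 0.359, 0.216 and 0.238 FPKM in the order unstimulated WT, unstimulated Jmjd6-/-, WT RANKL and Jmjd6-/- RANKL. Its WT and Jmjd6-/- libraries did not overlap, and its difference with RANKL as a term was -0.44 (SE 0.25, limma adjusted p = 0.361).

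*Egfl7* (XLOC_010353, chr2:26581056-26592682, plus strand) encodes a protein that endothelial cells secrete into their matrix, and an intron of the gene holds the microRNA miR-126. It was at 8.17 FPKM in unstimulated WT, 2.06 in unstimulated Jmjd6-/-, 5.54 and 9.70 in WT with RANKL, and 1.89 and 2.37 in Jmjd6-/- with RANKL. The WT RANKL libraries lay far apart, yet every WT library was above every Jmjd6-/- library. The difference with RANKL as a term was -1.81 (SE 0.23, limma adjusted p = 0.011) and under RANKL -1.75 (SE 0.31, limma adjusted p = 0.0568). Exons of *Egfl7* overlap *Agpat2* on the other strand, and no library step that keeps the strand is described, so some of its fragments may belong to that gene. *Emcn* (XLOC_012614, chr3:137341078-137431069, plus strand), a sialomucin of capillary and venous endothelium, was at 1.98, 1.607, 2.84, 1.615, 1.07 and 0.974 FPKM in the same order of libraries. Its unstimulated Jmjd6-/- library and WT RANKL replicate 2 thus nearly tied, each at an estimated 84 fragments. The genotype difference of *Emcn* with RANKL as a term was -0.76 (SE 0.27, limma adjusted p = 0.164). *Sox17* (XLOC_000618, chr1:4490928-4496413, minus strand), a transcription factor of arterial endothelium, was at 0.512, 0.129, 0.192, 0.226, 0.0620 and 0.125 FPKM. All 3 Jmjd6-/- values of *Sox17* were the lowest, but they stand for 5 to 7 fragments each and the difference of -0.94 (SE 0.32, limma adjusted p = 0.15) did not pass. Exons of *Sox17* overlap *Gm37587* on the other strand.

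**Figure D2:**
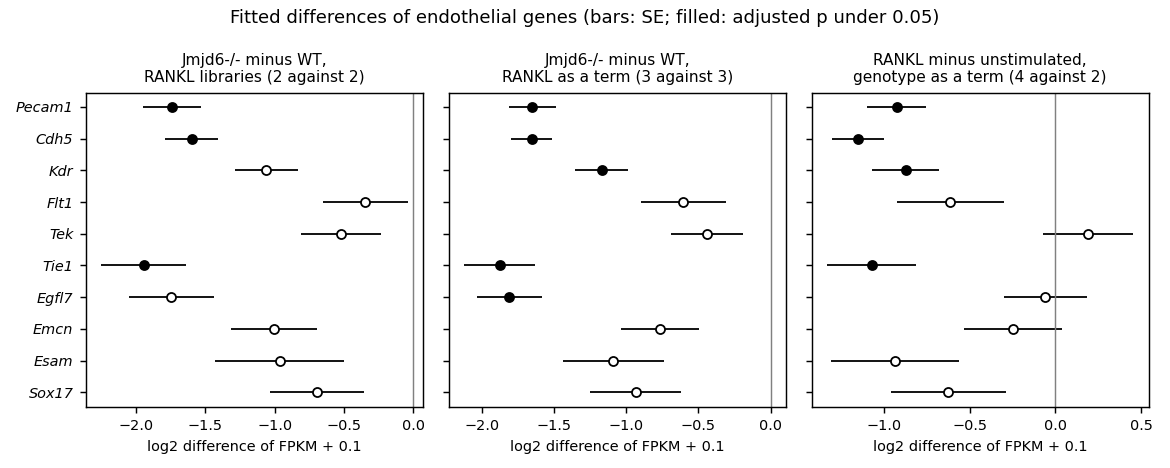
Differences in log2(FPKM + 0.1) for the 10 endothelial genes in each comparison, with bars for the SE from limma and filled points for an adjusted p under 0.05. The genotype differences lie below 0 for all 10 genes, and with RANKL as a term the median was -1.13.

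The members' median genotype difference was -1.03 under RANKL and -1.13 with RANKL as a term, beside medians of 0.01 and 0.01 over all genes tested. Of all genes, 1.82% were lower and 0.516% higher in Jmjd6-/- under RANKL, and 3.38% were lower and 2.05% higher with RANKL as a term. At an unadjusted p under 0.05 the members numbered 6 and 8 of 10, beside 2987 and 3506 of all 15894 genes. The 3 members that passed under RANKL, *Pecam1*, *Cdh5* and *Tie1*, all had adjusted p above the threshold without WT replicate 2 or without either Jmjd6-/- replicate, leaving 0 called by limma, with 4 to 6 at an unadjusted p under 0.05, while 6 were called without WT replicate 1. With RANKL as a term, 2 members were called without either Jmjd6-/- RANKL replicate. Without the filter on low values, 0 members were called in either genotype comparison by limma, with 6 and 7 at an unadjusted p under 0.05, and with genes at 0 throughout left out 0 and 5 were called. Shares of all genes called under these alternatives were not counted.

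Stimulation with RANKL went with lower levels of several members. *Cdh5* fell by 1.15 (SE 0.15, limma adjusted p = 0.00409), *Tie1* by 1.07 (SE 0.26, limma adjusted p = 0.0388), *Pecam1* by 0.92 (SE 0.17, limma adjusted p = 0.0144) and *Kdr* by 0.87 (SE 0.20, limma adjusted p = 0.0302) on the log2(FPKM + 0.1) scale, with 4 RANKL libraries against 2. That is 4 of 10 lower and 0 higher, beside 4.11% of all genes lower and 10.5% higher. Of 38 other tested surface and junction genes of endothelium, 7 were lower and 5 higher with RANKL. The comparison sets 1 unstimulated library of each genotype against the RANKL libraries. All 4 RANKL libraries lay below both unstimulated libraries for 0 of 10 members, against 18.5% of all genes, and the unstimulated Jmjd6-/- library was below both WT RANKL libraries for 8 members. Within WT lobes both RANKL libraries were below the unstimulated one for 7 members, and within Jmjd6-/- lobes for 8. Shares of all genes were not counted for these orders within a genotype, each resting on 1 unstimulated library. Nor was the share counted for unstimulated Jmjd6-/- below both WT RANKL libraries. *Egfl7* differed by -0.06 (SE 0.24, limma adjusted p = 0.896) and *Tek* by 0.19 (SE 0.26, limma adjusted p = 0.671), and their 95% intervals ran from -0.63 to 0.52 and from -0.44 to 0.82. Without either Jmjd6-/- RANKL library, 1 member was called.

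Whether the members' response to RANKL differed between the genotypes could not be decided, as each response rests on 1 unstimulated library. In the limma interaction test 0 of 10 members passed with adjustment and 0 of 10 at an unadjusted p under 0.05. Over all genes 0.0% passed with adjustment and 664 had an unadjusted p under 0.05. The median of the members' interaction was 0.18, from -0.72 (*Emcn*) to 0.77 (*Flt1*), with SE from 0.33 (*Cdh5*) to 0.81 (*Esam*). The limma intervals were wide, from -2.08 to 0.64 for *Emcn*, -0.56 to 2.11 for *Flt1* and -1.65 to 2.40 for *Esam*.

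The members did not all vary together. Over the 45 pairs, Pearson's r of log2(FPKM + 0.1) across the 6 libraries had a median of 0.831, ran from 0.236 to 0.998, and was above 0.8 for 26 pairs. With the mean of the other members, r was 0.99 for *Pecam1*, 0.71 for *Emcn* and 0.592 for *Tek*. The highest library was unstimulated WT for 7 members, and the lowest was a Jmjd6-/- RANKL library for 9. WT RANKL replicate 2 was above replicate 1 for 7 members. *Esam* and *Egfl7*, with GC contents of 53.7% and 57.1%, were higher in replicate 2, and *Emcn*, at 40.7%, was higher in replicate 1. *Tie1*, with the highest GC content of the members at 57.6%, differed less, at 0.774 and 0.876 FPKM. The part of GC content in the spread was not tested. With the trend in GC content and length taken out, 5 members were called under RANKL.

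Among 12581 further genes that averaged 1 FPKM or more, those whose pattern over the 6 libraries was most like the members' mean were *Tenc1*, *Angptl2*, *Agtrap*, *Tspan18*, *Hsf1*, *Ogn*, *Gimap6* and *Mest*, with Pearson's r from 0.988 to 0.996. *Angptl2*, an angiopoietin-like secreted protein, was at 53.4 FPKM in unstimulated WT, 24.8 in unstimulated Jmjd6-/-, 34.0 and 37.5 in WT with RANKL, and 16.2 and 14.4 in Jmjd6-/- with RANKL. With 6 libraries that share genotype and stimulation, r near 1 is a description and not a test.

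Promoters are shown for *Kdr* and *Tie1*, which passed with RANKL as a term, and for *Flt1* and *Emcn*, which did not. Their letters can thus be read beside the levels above. Those of *Egfl7*, which also passed, and *Tek*, which did not, were searched but are not shown. Of the 10 members 6 matched the RefSeq promoter table (GRCm38.p6), with 8 promoters in all, the others being *Pecam1*, *Cdh5*, *Esam* and *Sox17*. The letters AGGAAG and CCGGAA, which share GGAA and are known from the sites of ETS transcription factors, were searched on both strands of the 250 bases before each start. AGGAAG was in 5 of 8 member promoters and in 29.5% of 32851 promoters, and CCGGAA in 1 of 8, that of *Kdr*, and in 12%. Several of the 8 are separate starts of *Egfl7*, which held AGGAAG 3, 1 and 0 times, and *Tek* held it 0 times. AGATAA (10%) and ACAATG (10.7%) were in 0 of 8, and TATAAA (12.4%) was in 1. A match is a description of these letters and not a site. Capitals mark AGGAAG or CCGGAA on either strand in the following promoters, all written 5′ to 3′ in the direction of the gene. They are *Kdr* (chr5:75978456-75978705, minus strand), *Tie1* (chr4:118489850-118490099, minus strand), *Flt1* (chr5:147726012-147726261, minus strand) and *Emcn* (chr3:137340828-137341077, plus strand).
Kdr: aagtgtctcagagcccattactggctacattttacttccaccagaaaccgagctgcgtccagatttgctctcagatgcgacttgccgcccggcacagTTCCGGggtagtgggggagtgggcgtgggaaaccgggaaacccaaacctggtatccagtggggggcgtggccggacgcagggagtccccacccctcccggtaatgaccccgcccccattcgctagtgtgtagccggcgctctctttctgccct
Tie1: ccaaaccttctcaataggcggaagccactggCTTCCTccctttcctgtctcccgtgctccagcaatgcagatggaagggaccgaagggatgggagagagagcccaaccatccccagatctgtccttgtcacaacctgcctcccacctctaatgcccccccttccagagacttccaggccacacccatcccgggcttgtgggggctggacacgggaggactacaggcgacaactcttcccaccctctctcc
Flt1: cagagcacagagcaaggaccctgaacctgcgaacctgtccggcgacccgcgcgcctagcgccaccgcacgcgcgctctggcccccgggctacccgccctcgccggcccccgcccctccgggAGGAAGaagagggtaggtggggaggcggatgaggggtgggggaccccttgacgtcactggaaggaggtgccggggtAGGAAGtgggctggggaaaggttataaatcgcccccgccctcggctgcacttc
Emcn: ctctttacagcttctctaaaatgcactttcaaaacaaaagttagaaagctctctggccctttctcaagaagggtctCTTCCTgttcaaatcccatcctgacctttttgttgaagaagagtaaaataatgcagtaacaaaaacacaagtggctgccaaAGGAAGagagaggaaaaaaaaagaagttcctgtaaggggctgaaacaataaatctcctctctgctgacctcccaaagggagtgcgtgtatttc

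Of the genes for ligands of these receptors, *Vegfa*, *Pgf* and *Angpt2* were lower in Jmjd6-/- lobes with RANKL as a term, while *Vegfb*, *Vegfc*, *Figf*, *Angpt1* and *Angpt4* did not pass the threshold. *Vegfa*, which encodes the main VEGF, was at 52.8 FPKM in unstimulated WT, 34.5 in unstimulated Jmjd6-/-, 96.3 and 95.0 in WT with RANKL and 50.7 and 44.5 in Jmjd6-/- with RANKL. It rose with RANKL by 0.66 (SE 0.11, limma adjusted p = 0.0116), where 4 members fell, and was lower in Jmjd6-/- under RANKL, at -1.01 (SE 0.12, limma adjusted p = 0.028). *Angpt2*, which encodes a modulating ligand of the Tek receptor and is itself made by endothelial cells, was at 12.9, 3.75, 3.59, 3.36, 1.45 and 1.23 FPKM in the order used above. Like *Cdh5* it fell with RANKL, by 1.64 (SE 0.17, limma adjusted p = 0.00146), and it was lower in Jmjd6-/- with RANKL as a term, at -1.46 (SE 0.16, limma adjusted p = 0.00824). *Angpt1*, the activating ligand, differed by -0.33 (SE 0.11, limma adjusted p = 0.141). *Pgf*, a ligand of the Flt1 receptor, was at 7.44, 1.74, 4.79, 12.5, 2.51 and 2.03 FPKM and was lower in Jmjd6-/- with RANKL as a term (-1.83, SE 0.34, limma adjusted p = 0.0307). Of 8 genes of VEGF ligands and co-receptors, 3 fell and 0 rose by genotype with RANKL as a term. The 3 were *Vegfa*, *Pgf* and the co-receptor gene *Nrp1*. Of 6 genes of angiopoietins and their partners 1 fell. Over all genes 3.38% fell and 2.05% rose in that comparison. Under RANKL 1.82% of all genes fell by genotype, and 10.5% rose with RANKL itself. Of 10 hypoxia response genes, a group in which *Vegfa* is counted, 4 rose with RANKL, and 3 (*Vegfa*, *Ldha* and *Bnip3*) were lower in Jmjd6-/- under RANKL, against 1 with RANKL as a term. The part of these genes in the members' levels was not tested.

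**Figure D3:**
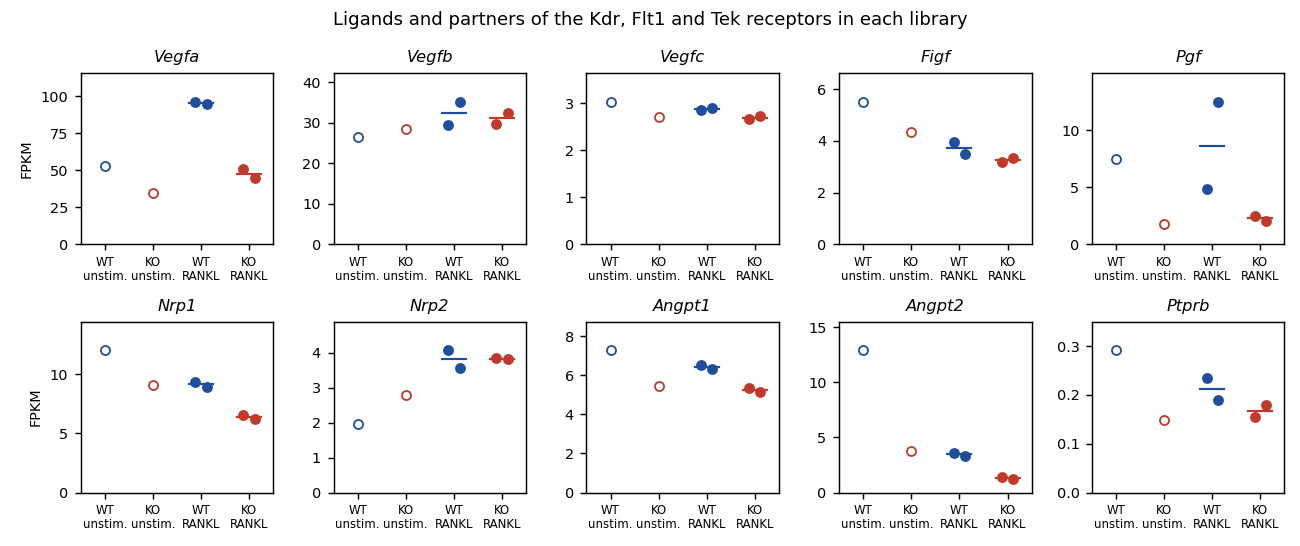
Levels of genes for ligands and partners of the receptors in the 6 libraries, on linear axes in FPKM that start at 0, with 1 point a library and a bar at the mean of the RANKL pair (KO is Jmjd6-/-). *Vegfa* rises to 96.3 and 95.0 FPKM in WT with RANKL while *Angpt2* falls from 12.9 to 3.59 and 3.36.

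Other genes of endothelium were counted from fixed lists, chosen like the members with earlier results of these data known. Over all genes, 3.38% were lower and 2.05% higher with RANKL as a term. Under RANKL the shares were 1.82% lower and 0.516% higher. Of 38 tested surface and junction genes, 14 were lower and 1 higher in Jmjd6-/- lobes with RANKL as a term, with a median of -0.71, and under RANKL 4 were lower and 1 higher. *Gpihbp1*, which carries lipoprotein lipase across capillary endothelium, was at 4.87 FPKM in unstimulated WT, 0.899 in unstimulated Jmjd6-/-, 3.18 and 4.31 in WT with RANKL and 0.579 and 0.483 in Jmjd6-/- with RANKL (-2.50 with RANKL as a term, SE 0.19, limma adjusted p = 0.00342). *Ramp2*, a partner of the adrenomedullin receptor, differed by -1.97 (SE 0.17, limma adjusted p = 0.00432), and *Icam2*, an adhesion molecule of endothelium, by -2.16 (SE 0.25, limma adjusted p = 0.00902). The gene that was higher was *Tspan8*, a tetraspanin that epithelial cells also make, by 1.28 (SE 0.13, limma adjusted p = 0.00752). Of 23 transcription factors of endothelium, 3 fell (*Erg*, *Bcl6b* and *Lmo2*) and 2 rose, with a median of -0.32. *Bcl6b* differed by -1.74 (SE 0.20, limma adjusted p = 0.00866). The genes that rose, *Klf4* (1.09, limma adjusted p = 0.0135) and *Ets2* (0.58, limma adjusted p = 0.018), are made by many epithelia too. Genes that fell may likewise be made by other cells, and which cells made any of these genes was not tested. Of 8 tested leukocyte adhesion genes 0 differed by genotype in limma with RANKL as a term, with 2 at an unadjusted p under 0.05, while *Madcam1* (3.68, SE 0.24, limma adjusted p = 0.000227) and *Icam1* (0.81, SE 0.08, limma adjusted p = 0.00145) rose with RANKL.

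**Figure D4:**
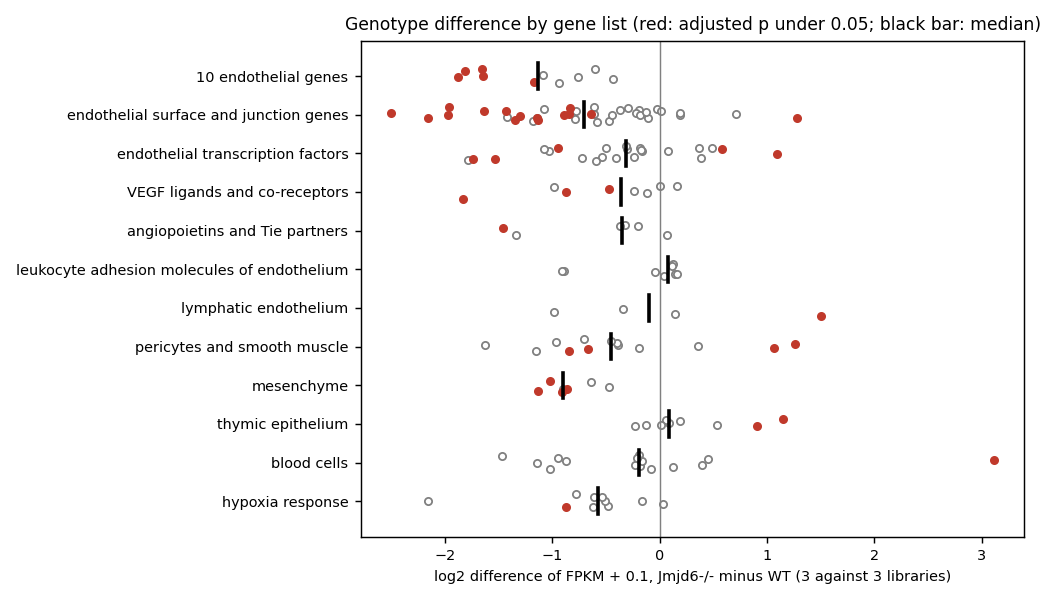
Genotype difference in log2(FPKM + 0.1) with RANKL as a term for the genes of each list, with 1 point a gene, red at an adjusted p under 0.05, and a black bar at the list's median. The members' median of -1.13 lies beside -0.71 for other endothelial surface genes, -0.90 for mesenchyme and 0.09 for thymic epithelium.

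Markers of other cells were read beside the members, where 3.38% of all genes were lower and 2.05% higher with RANKL as a term. Of 7 mesenchymal genes 4 were lower and 0 higher in Jmjd6-/- lobes with RANKL as a term, with a median of -0.90, and their summed level was 632 to 707 FPKM in WT and 302 to 408 in Jmjd6-/- libraries. *Col3a1*, a fibrillar collagen of mesenchyme, differed by -1.02 (SE 0.08, limma adjusted p = 0.00342). Of 13 pericyte and smooth muscle genes, from the cells that wrap vessels, 2 were lower and 2 higher with a median of -0.45. Of 15 tested blood cell genes 0 were lower and 1, *Ppbp*, was higher in limma (3.12, SE 0.15, limma adjusted p = 0.000737), with 4 at an unadjusted p under 0.05 in either direction. The sum was 440 to 483 FPKM in WT and 388 to 433 in Jmjd6-/-, of which *Lyz2* alone held 285 to 346. *Ptprc* was at 2.89 to 6.81 FPKM and *Emr1* at 12.7 to 34.7. The T cell gene *Cd3e* was listed at 0 in 5 of 6 libraries. *Lck*, another T cell gene, was at 0.390 to 1.91 FPKM and higher with RANKL (1.12, limma adjusted p = 0.0226). With RANKL 4 of the 15 were lower, among them *Ptprc* by 1.00 (SE 0.14, limma adjusted p = 0.00547), and 2 higher, beside 4.11% and 10.5% of all genes. Of 9 thymic epithelial genes 0 were lower and 2 higher. The part of mesenchyme, blood and epithelium in the members' difference was not tested.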

How the data were processed

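Poly-A RNA from fetal thymus cultures had been sequenced in paired-end mode in 6 libraries. The authors had mapped reads to mm10 with TopHat2 2.0.10 and computed FPKM per gene with Cufflinks 2.1.1 (multi-read correction, second-strand library type) per the submitters' processing notes and the paper, and the deposited FPKM values were used as they stand, with totals of 501418 to 564985 a library. Strand-keeping is not described for the library kit. Locus starts in the file count from 0 and 1 was added (9831 of 20754 loci then matched the annotated start, against 960 without).

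Depth was estimated from the steps between values under 0.15 FPKM with transcript length less 150 bases, and is approximate. It was 30900000 fragments in unstimulated WT, 15500000 in unstimulated Jmjd6-/-, 26900000 and 15500000 in WT RANKL, and 25700000 and 18600000 in Jmjd6-/- RANKL libraries.

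log2(FPKM + 0.1) of the 15894 genes averaging 0.1 FPKM or more was fitted in limma 3.58.1 (R 4.3.3) with a mean-variance trend, all 6 libraries and Benjamini-Hochberg adjustment over all genes, with a threshold of 0.05. RANKL was tested with genotype as a term, genotype under RANKL from means of the 4 conditions, and genotype with RANKL as a term. In the fits with a term, the spread behind the p-values also holds any difference in RANKL response between the genotypes. If the RANKL pairs are technical duplicates, these fits count a culture more than once. Fold changes of low genes are understated by the added 0.1. The scripts were tested on simulated data.

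Members and lists were chosen with earlier results of these data known. Genes named are the 10 members, up to 5 genes with the lowest adjusted p and the first 3 genes of a list, the 8 genes most like the members' mean, and *Jmjd6* and *Aire* as checks. *Vwf*, *Cd3e*, *Lck* and other list genes outside this rule were picked from the lists after their values were seen. Alternatives were the added constant, the filter, the trend, 2 scalings, leaving out each RANKL library, the GC and length trend, the replicate number as a block, and a fit without genes at 0 throughout, which was added after the data were seen.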

Additional observations from a re-analysis of the deposited data

Results flagged for a closer look

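*Col1a1*, a fibrillar collagen of mesenchyme and of the list set beside the endothelial genes, moved in opposite directions with RANKL in the genotypes. It was at 68.1 FPKM in unstimulated WT and 60.2 and 55.8 in WT with RANKL, and at 29.4 in unstimulated Jmjd6-/- and 30.9 and 37.6 in Jmjd6-/- with RANKL. The difference between the genotypes' responses was 0.445 on the log2 scale (SE 0.236), with a limma interaction adjusted p of 1.0, and each response rests on 1 unstimulated library.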

How the results depend on the processing

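The direction of every member in both genotype comparisons was kept under all alternatives run. Members called by genotype under RANKL (3) numbered 0 without a filter, 0 without a filter and with genes at 0 throughout left out, which was added after the data were seen, 5 with the GC and length trend taken out, and 0 to 6 when a RANKL library was left out. With RANKL as a term (5) they numbered 0 without a filter and 2 to 6 when a library was left out. By RANKL (4) they numbered 1 without a filter and 1 to 5 when a library was left out. Shares of all genes called under these alternatives were not counted. Whether the counts changed more for the members than for other genes is thus not known. The medians moved with the added constant and the filter. With 1 FPKM added they were -0.33 by RANKL, -0.66 by genotype under RANKL and -0.72 with RANKL as a term, with 0.01 added -0.9, -1.16 and -1.33, and with a filter at a mean of 1 FPKM, which kept 6 members, -0.9, -1.33 and -1.41. When each RANKL library was left out, they ran from -0.81 to -0.58, from -1.31 to -0.99 and from -1.34 to -1.11. *Egfl7* by RANKL was 0.13 without WT RANKL replicate 1 (limma adjusted p = 0.569), and -0.22 without replicate 2, against -0.06. The cause of these changes was not tested. Libraries of the same replicate number showed no shared deviation, with a correlation of -0.078 over 12587 genes. This sets 1 WT difference against 1 Jmjd6-/- difference and cannot show whether same-numbered libraries were handled together. With the number as a block, fitted on the RANKL libraries, 4 members were called against 3 without it, with a median of -1.03. Few fragments limit *Sox17*, *Tek* and *Tie1*.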

Other observations

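Endothelial genes of the lymphatic list and of the surface list did not all follow the members. *Prox1*, a transcription factor of lymphatic endothelium that other cells also make, was at 0.328 FPKM in unstimulated WT and 0.422 and 0.304 in WT with RANKL, and at 1.58 in unstimulated Jmjd6-/- and 1.03 and 0.981 in Jmjd6-/- with RANKL. The 3 Jmjd6-/- libraries were above the 3 WT libraries (1.5 with RANKL as a term, SE 0.25, limma adjusted p = 0.0234), and of the 4 lymphatic genes tested it alone passed in that comparison. *Gja4*, a connexin of arterial endothelium, was at 1.09 FPKM in unstimulated WT, 0.873 in unstimulated Jmjd6-/-, 5.90 and 6.86 in WT with RANKL and 2.27 and 1.75 in Jmjd6-/- with RANKL. It rose with RANKL by 1.78 (SE 0.31, limma adjusted p = 0.0124), where *Cdh5* and *Pecam1* fell. *Gja4* was 1 of 5 that rose among the 38 tested surface and junction genes, while 7 fell. The RANKL mean of *Gja4* was 5.88 times the unstimulated level in WT and 2.3 times in Jmjd6-/-, each against 1 unstimulated library. By genotype *Gja4* was lower like the members, at -1.63 under RANKL (SE 0.22, limma adjusted p = 0.0375). With RANKL as a term it was -1.18 (SE 0.30, limma adjusted p = 0.0736).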
